A study of Mus musculus with 30 samples.

Results

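Expression, not splicing, is described here for 5 genes whose products set the electrical excitability of the muscle fibre membrane. They are the chloride channel gene Clcn1, the sodium channel gene Scn4a, the calcium channel subunit genes Cacnb1 and Cacng1, and the sodium-potassium pump gene Atp1b1. They were listed by name for their place in membrane excitability and myotonia and were matched by Ensembl gene identifier. All 5 were found among the 56748 genes of the count table, and all 5 were among the 17518 genes that passed the filter on low counts and were tested.

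In resting skeletal muscle, chloride carried by the Clcn1 channel stabilises the membrane, and loss of this conductance lets a fibre fire repeatedly after a stimulus, which is myotonia. The Scn4a channel carries the upstroke of the action potential, and the calcium channel of the transverse tubules senses that voltage and couples it to calcium release inside the fibre. The sodium-potassium pump restores the ion gradients that activity runs down.

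RNA from the quadriceps of 30 mice in 8 groups was sequenced after poly(A) enrichment. In myotonic dystrophy type 1 (DM1) an expanded CTG repeat is transcribed into CUG-repeat RNA that binds muscleblind splicing factors. L9 is a locked nucleic acid antisense oligonucleotide complementary to that repeat, and pacDNA-L9 is L9 joined to a bottlebrush polymer of polyethylene glycol. The comparisons asked how the genes differed between diseased and wild-type muscle and whether the treated groups differed from untreated diseased muscle.

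The WT group held 5 untreated FVB/N wild-type mice. The NT group held 8 untreated HSA-LR mice, which carry a human skeletal actin transgene with the expanded repeat, labelled DM1 in genotype. The strain of the HSA-LR mice was labelled FVB/N in the first deposited set and was not given for the 6 libraries of the second, NT 7 and NT 8 among them. The repeat in this model is driven by a skeletal actin gene and not by Dmpk, so it is made in skeletal muscle and not in the other tissues that DM1 affects. All treated mice were HSA-LR mice first injected in the tail vein at 8 weeks of age and killed 2 weeks after the last injection. The pacDNA-L9 groups received 5.3 mg/kg in 1 injection (4 mice), 21.2 mg/kg in 4 injections (3 mice) or 42.4 mg/kg in 8 injections (3 mice), counted as oligonucleotide. The controls were free L9 at 5.3 mg/kg (3 mice), Brush, the polymer alone at 40 nmol (2 mice), and pacDNA-Scr, a scrambled sequence on the polymer at 5.3 mg/kg (2 mice). Dose and number of injections rose together and cannot be told apart. The age of the untreated mice at harvest was not given in the sources used here.

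Total counts per library ran from 13605309 to 26956558. A second deposited set of 6 libraries stood apart: the first principal component held 59.0% of the variance, and those 6 libraries lay at 172 or higher while the 24 libraries of the first set lay at -42.8 or lower. The second set held NT 7, NT 8, pacDNA-L9 5.3 C and D, pacDNA-L9 21.2 C and free L9 C, and 5 of these 6 libraries listed all 37 mitochondrial genes at 0, free L9 C being the exception. Free L9 B stood apart within the first set, with 14485 genes detected. In 9 libraries of the first set the column name held only a group and a running number, and these included all 3 pacDNA-L9 42.4 libraries, WT unnumbered (a WT column whose name matched no single label), NT 6, free L9 A and B, Brush B and pacDNA-Scr B. By Xist against Y-linked genes, the libraries were female in 4 of 5 WT, 4 of 8 NT, 3 of 4 pacDNA-L9 5.3, 2 of 3 pacDNA-L9 21.2, 3 of 3 pacDNA-L9 42.4, 2 of 3 free L9, 1 of 2 Brush and 1 of 2 pacDNA-Scr. Levels below are TMM-scaled CPM, and fold changes are from edgeR's quasi-likelihood test over all 30 libraries with the deposited set as a term, with p-values adjusted over all genes tested and called at an adjusted p under 0.05.

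Clcn1 was lower and Cacng1 higher in untreated HSA-LR quadriceps than in wild type. In NT against WT, 2 of the 5 genes were called, beside 5.31% of all genes tested (930 genes, 637 higher and 293 lower). With an absolute log2 fold change over 1 also required, 0 of the 5 were called, beside 2.56% of all genes. In 1 of the 5, Clcn1, the NT and WT libraries did not overlap, beside 4.72% of all genes. Fewer fibres expressing a gene and less of its RNA in each fibre cannot be told apart in whole muscle.

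Clcn1 (ENSMUSG00000029862) lies at chr6:42263595-42292718 on the plus strand of GRCm39 and encodes the main chloride channel of skeletal muscle. The WT libraries 1 to 4 and the unnumbered one held 151, 214, 195, 185 and 121 CPM. The 8 NT libraries ran from 67.9 through a median of 96.5 to 118 CPM. Each NT library was below each WT library, with the smallest gap between NT 2 and WT unnumbered. The log2 fold change of NT against WT was -0.83 (SE 0.18, 95% interval -1.20 to -0.45, n = 8 and 5), a fold of 0.564 (0.435 to 0.731), with an adjusted p of 0.00494 from edgeR. Of the exon bases of Clcn1, 8.02% also lie in Fam131b on the opposite strand. Whether the counting used strand was not given in the sources used here.

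In the treated groups Clcn1 was measured at 91.0, 104, 74.4 and 62.7 CPM in pacDNA-L9 5.3 A to D and at 151, 135 and 73.2 CPM in pacDNA-L9 21.2 A to C. It was measured at 60.7, 64.4 and 61.5 CPM in pacDNA-L9 42.4 A to C and at 73.5, 56.1 and 118 CPM in free L9 A to C. Brush A and B held 104 and 90.9 CPM, and pacDNA-Scr A and B held 126 and 92.7 CPM. The 3 libraries of the highest dose were tightly grouped and lay below all 8 NT libraries, whereas the 21.2 mg/kg group was split between its libraries of the first set, which were higher than any NT library, and that of the second set, which was among the low NT values. Ordered by mean, the groups ran WT 173 ± 37.1, pacDNA-L9 21.2 120 ± 41.0, pacDNA-Scr 109 ± 23.3, Brush 97.6 ± 9.48, NT 94.8 ± 15.8, pacDNA-L9 5.3 83.0 ± 18.2, free L9 82.5 ± 31.9 and pacDNA-L9 42.4 62.2 ± 1.93 CPM (SD). Each group overlapped its neighbours in that order.

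**Figure D1:**
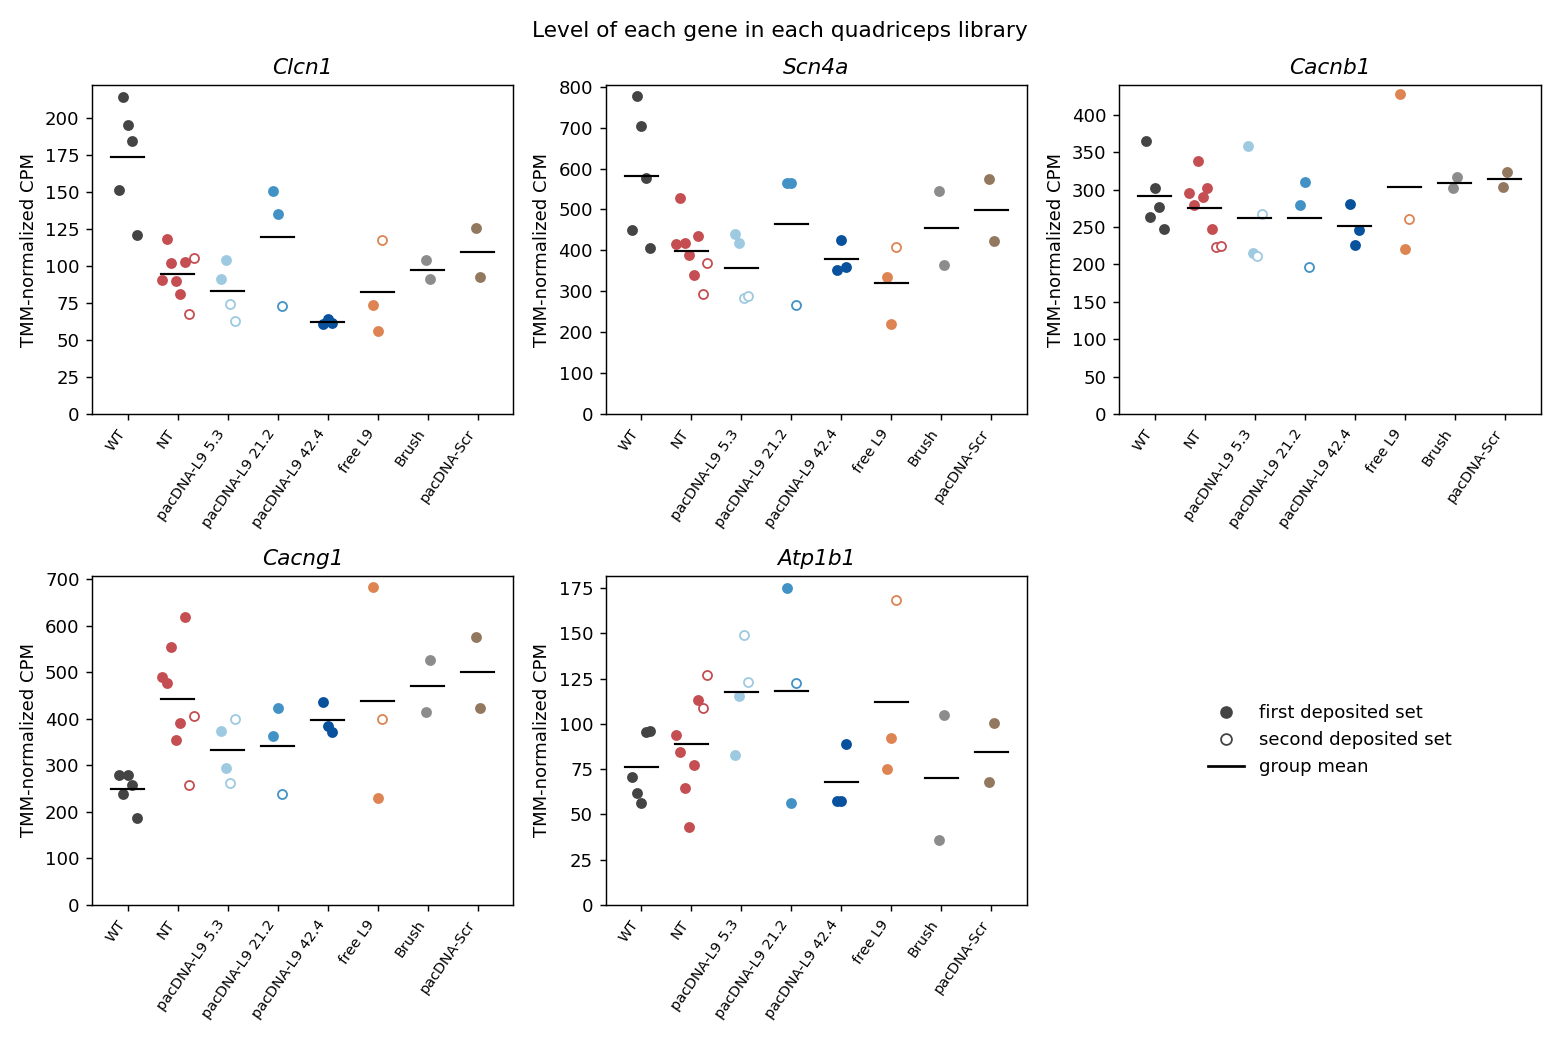
Level of each of the 5 genes (TMM-normalised CPM, linear axis from 0) in each of the 30 libraries by group, with filled points for the first deposited set, open points for the second and a line at the group mean. The Clcn1 points of NT (67.9 to 118) all lie below those of WT (121 to 214), and the 3 pacDNA-L9 42.4 points lie between 60.7 and 64.4.

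None of the treated groups had a called difference from NT in Clcn1. The largest was that of pacDNA-L9 42.4 against NT, with a log2 fold change of -0.65 (SE 0.23, interval -1.12 to -0.19, n = 3 and 8) and an adjusted p of 0.134 from edgeR, or 0.0665 from DESeq2. It was the 1 gene of the 5 whose libraries did not overlap between these groups, beside 7% of all genes. The call depended on the libraries and terms fitted: the adjusted p was 0.0324 in the first set alone (log2 fold change -0.66), and 0.727 with the 9 running-number libraries as a further level of the set term (-0.29). Within those 9 libraries Clcn1 was at 121 CPM in WT unnumbered, 102 in NT 6, 92.7 in pacDNA-Scr B, 90.9 in Brush B, 73.5 and 56.1 in free L9 A and B and 60.7 to 64.4 in pacDNA-L9 42.4, so free L9 B was lower than the highest dose. The log2 fold changes of the other groups against NT were -0.15 for pacDNA-L9 5.3 (interval -0.56 to 0.25), 0.33 for pacDNA-L9 21.2 (-0.10 to 0.76), -0.16 for free L9 (-0.61 to 0.30), 0.00 for Brush (-0.52 to 0.52) and 0.16 for pacDNA-Scr (-0.36 to 0.67). The free L9 value ran from -0.66 without free L9 C (adjusted p 0.0603) to 0.09 without free L9 B (0.903), and free L9 A and B were both below the NT libraries of the first set. The differences between these groups were not themselves tested. Against WT, the pacDNA-L9 42.4 group differed by -1.48 (SE 0.24, interval -1.98 to -0.98, n = 3 and 5, adjusted p 0.000153 from edgeR).

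The promoter of Clcn1 is shown because Clcn1 fell in NT, and that of Scn4a because the 2 genes varied together across libraries. Both are 300 bases from RefSeq on GRCm38.p6, 5′ to 3′ in the gene's direction, at chr6:42286435-42286734 (plus strand) and chr11:106349341-106349640 (minus strand). Capitals mark the E-box CANNTG, the core bound by myogenic factors such as MyoD, and the MEF2-like CTANNNNTAG, both searched on both strands.
Clcn1 promoter: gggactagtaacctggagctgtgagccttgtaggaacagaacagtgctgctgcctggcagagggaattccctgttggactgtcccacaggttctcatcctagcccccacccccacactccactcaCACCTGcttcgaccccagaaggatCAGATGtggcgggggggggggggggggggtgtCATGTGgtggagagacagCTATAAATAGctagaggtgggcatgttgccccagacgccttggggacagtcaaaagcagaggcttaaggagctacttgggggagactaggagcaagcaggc
Scn4a promoter: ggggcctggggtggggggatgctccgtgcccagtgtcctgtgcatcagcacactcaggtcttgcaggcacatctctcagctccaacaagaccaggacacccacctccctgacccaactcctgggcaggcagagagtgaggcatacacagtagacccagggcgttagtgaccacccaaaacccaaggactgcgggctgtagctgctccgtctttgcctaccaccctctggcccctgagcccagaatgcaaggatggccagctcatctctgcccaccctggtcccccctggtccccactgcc
Clcn1 had 3 matches of the E-box and 1 of the MEF2-like motif, CTATAAATAG, which did not overlap each other, and Scn4a had 0 of either. Among 32851 promoters of this length, 72.3% held an E-box and 3.69% a MEF2-like match. Promoters were found for 4 of the 5 genes, and a match is a description of letters in this window.

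Scn4a (ENSMUSG00000001027, chr11:106208370-106256385, minus strand, GRCm39) encodes the pore of the skeletal muscle sodium channel. WT libraries 1 to 4 and the unnumbered one held 449, 776, 704, 577 and 405 CPM, and the NT libraries ran from 294 through a median of 402 to 527 CPM. WT 2, 3 and 4 were above all NT libraries, and WT 1 and the unnumbered library lay within the NT range. The log2 fold change of NT against WT was -0.47 (SE 0.19, interval -0.85 to -0.08), which was not called (adjusted p 0.179 from edgeR, 0.144 from DESeq2).

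Scn4a was measured at 440, 419, 283 and 288 CPM in pacDNA-L9 5.3 A to D, at 564, 566 and 266 CPM in pacDNA-L9 21.2 A to C and at 353, 426 and 360 CPM in pacDNA-L9 42.4 A to C. In the controls it was measured at 334, 220 and 407 CPM in free L9 A to C, 546 and 365 CPM in Brush A and B, and 574 and 423 CPM in pacDNA-Scr A and B. The libraries of the second set were the low ones in both pacDNA-L9 groups that had them, and free L9 B was the lowest library of all. By mean the groups ran WT 583 ± 159, pacDNA-Scr 498 ± 106, pacDNA-L9 21.2 465 ± 173, Brush 456 ± 128, NT 399 ± 69.6, pacDNA-L9 42.4 380 ± 40.5, pacDNA-L9 5.3 358 ± 83.4 and free L9 320 ± 94.4 CPM (SD), and neighbours in that order overlapped. Against NT, the fitted log2 differences of the 6 treated groups lay between -0.24 (free L9) and 0.24 (pacDNA-Scr), and none was called. Against WT, pacDNA-L9 42.4 stood at -0.62 (SE 0.24, interval -1.11 to -0.13), with an adjusted p of 0.106 from edgeR. With the 9 running-number libraries as a further level of the set term it was -0.20 (adjusted p 0.733). This difference was called with library size alone and without free L9 B (adjusted p 0.0408 from edgeR in the latter).

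**Figure D2:**
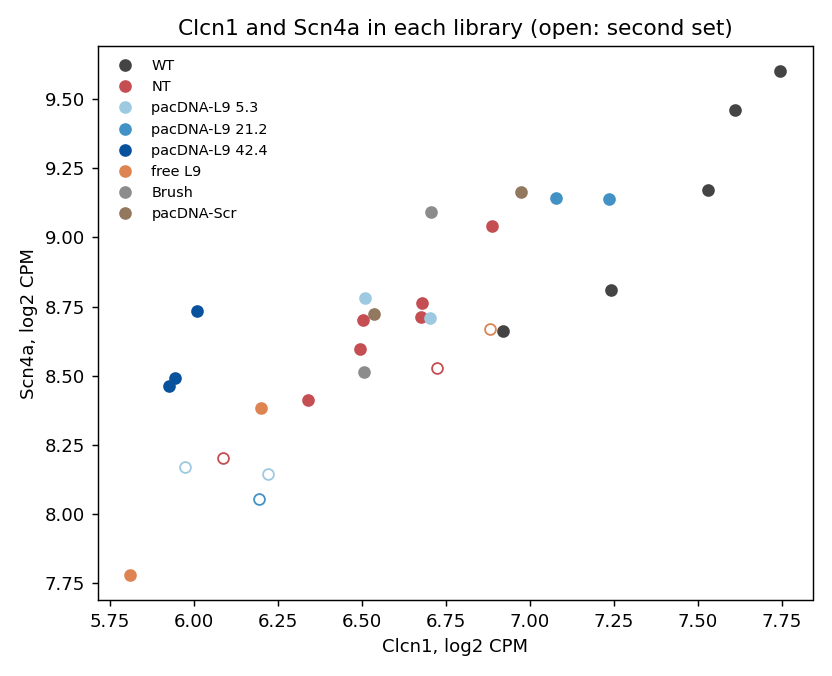
Scn4a against Clcn1 in each of the 30 libraries (both axes log2 CPM), coloured by group, with open points for the second deposited set. Libraries high in Clcn1 were high in Scn4a, and the 3 pacDNA-L9 42.4 points lie to the left of the NT points at similar Scn4a.

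Across the 24 libraries of the first set, log2 CPM of Clcn1 and Scn4a had a Pearson r of 0.87, and the value was 0.87 over all 30 libraries with each set centred. With each group centred on its own mean it was 0.91 in the first set, so the relation was also present between libraries of the same group. These libraries share a muscle, a scaling and the library preparation, so r describes them and no p is given. None of the other 9 pairs among the 5 genes had an r above 0.46 in the first set, the highest being Cacnb1 with Cacng1. With each group centred, r was 0.67 for Cacnb1 with Cacng1, 0.49 for Clcn1 with Cacng1 (-0.33 before centring) and 0.46 for Scn4a with Cacng1.

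The 2 calcium channel subunits differed in pattern. Cacng1 (ENSMUSG00000020722, chr11:107591493-107607408, minus strand, GRCm39) encodes the gamma subunit of the transverse tubule calcium channel. WT libraries 1 to 4 and the unnumbered one held 279, 238, 280, 258 and 186 CPM. The NT libraries ran from 257 through a median of 441 to 618 CPM. The only NT library within the WT range was NT 7, of the second set, at 257 CPM. The log2 fold change was 0.91 (SE 0.21, interval 0.49 to 1.34, n = 8 and 5), a fold of 1.88 (1.41 to 2.52), with an adjusted p of 0.00593 from edgeR.

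Cacng1 stood at 374, 295, 263 and 400 CPM in pacDNA-L9 5.3 A to D, at 363, 424 and 238 CPM in pacDNA-L9 21.2 A to C and at 436, 385 and 372 CPM in pacDNA-L9 42.4 A to C. It stood at 683, 230 and 400 CPM in free L9 A to C, 415 and 527 CPM in Brush A and B, and 576 and 424 CPM in pacDNA-Scr A and B. The free L9 group spanned both extremes of all treated libraries. By mean the order was pacDNA-Scr 500 ± 108, Brush 471 ± 79.4, NT 443 ± 115, free L9 438 ± 228, pacDNA-L9 42.4 398 ± 34.0, pacDNA-L9 21.2 341 ± 94.9, pacDNA-L9 5.3 333 ± 64.5 and WT 248 ± 38.6 CPM (SD), with each group overlapping its neighbours. No treated group was called against NT, and the fitted log2 differences lay between -0.36 (pacDNA-L9 21.2, interval -0.85 to 0.13) and 0.10 (pacDNA-Scr, -0.46 to 0.66). Against WT, pacDNA-L9 42.4 had a log2 fold change of 0.68 (SE 0.25, interval 0.17 to 1.19), which was not called (adjusted p 0.0811 from edgeR).

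Cacnb1 (ENSMUSG00000020882, chr11:97892204-97913860, minus strand) encodes the beta subunit that brings the calcium channel to the membrane. It ran from 248 to 365 CPM in WT and from 223 to 339 CPM in NT, with a median of 284 CPM. The log2 fold change of NT against WT was 0.00 (SE 0.14, interval -0.29 to 0.29), and in the 7 other comparisons it lay between -0.22 and 0.17. The group means lay between 251 CPM in pacDNA-L9 42.4 and 314 CPM in pacDNA-Scr, and all 8 groups overlapped their neighbours. Within NT the mean was 292 CPM in the first set and 224 CPM in the second. The highest library was free L9 A at 428 CPM.

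Atp1b1 (ENSMUSG00000026576, chr1:164264678-164285957, minus strand) encodes a beta subunit of the sodium-potassium pump, which the catalytic alpha subunit needs to reach the membrane. It ran from 56.3 to 96.1 CPM in WT and from 42.7 through a median of 89.1 to 127 CPM in NT. The log2 fold change was 0.07 (SE 0.26, interval -0.47 to 0.61). Libraries within a treated group differed widely: pacDNA-L9 21.2 A to C held 175, 56.5 and 122 CPM, and Brush A and B held 35.6 and 105 CPM. Group means ran from 67.9 ± 18.0 CPM in pacDNA-L9 42.4 to 118 ± 59.3 CPM in pacDNA-L9 21.2 (SD), with neighbouring groups overlapping. These means are not adjusted for the deposited set, and pacDNA-L9 42.4 had no library of the second set. By set, first then second, the mean was 79.2 and 118 CPM in NT and 99.3 and 136 CPM in pacDNA-L9 5.3. The fitted differences from NT, with the set as a term, lay between -0.23 and 0.40 in log2, none of them called. With each library left out in turn, the fitted difference ran from -0.23 to 0.70 for pacDNA-L9 21.2 and from -1.17 to 0.39 for Brush. In Atp1b1, 18.1% of exon bases also lie in Gm32391 and Nme7 on the opposite strand, beside 1.39% in Cacnb1 (Gm11629), 0.988% in Scn4a (Prr29) and 0 in Cacng1.

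**Figure D3:**
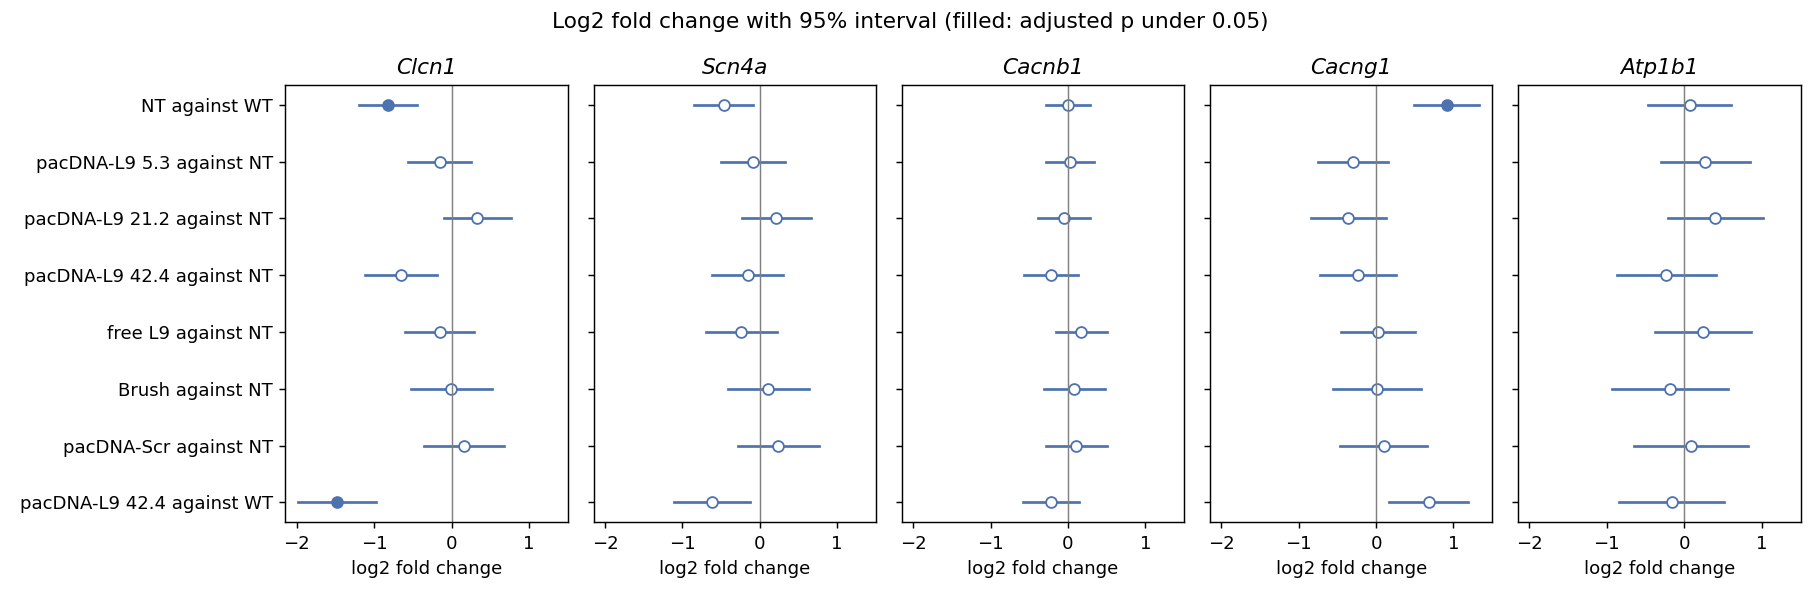
Log2 fold change of each of the 5 genes in the 8 comparisons, with 95% intervals from edgeR and filled points where the adjusted p was under 0.05. The filled points are Clcn1 in NT against WT (-0.83) and in pacDNA-L9 42.4 against WT (-1.48) and Cacng1 in NT against WT (0.91).

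Per kilobase of exon, which allows levels to be compared between genes, the NT means were 201 CPM for Cacng1, 47.9 for Cacnb1, 46.3 for Scn4a, 18.3 for Atp1b1 and 16.1 for Clcn1. In WT the means per kilobase were 113 CPM for Cacng1, 67.7 for Scn4a, 50.7 for Cacnb1, 29.4 for Clcn1 and 15.7 for Atp1b1. Cacng1 was thus the most abundant of the 5 in both genotypes, and Clcn1 and Atp1b1 the least.

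In the comparisons of treated groups with NT, 0 of the 5 genes were called in any. For pacDNA-L9 42.4 the background was 3.14% of genes called (550, 399 higher and 151 lower), and 1 of the 5 had an unadjusted p under 0.05, with 0 called by DESeq2. For free L9 it was 0.942% (165 genes), and for pacDNA-L9 21.2 it was 0.0685% (12 genes, all higher), with 0 of the 5 at an unadjusted p under 0.05 and 0 by DESeq2 in both. For pacDNA-L9 5.3, Brush and pacDNA-Scr edgeR called 0 genes in all, 0% of those tested, although before adjustment 277, 329 and 270 genes had a p below 0.05. DESeq2 called 3, 6 and 1 genes there, and 0 of the 5 passed in edgeR before adjustment or in DESeq2 after it. A share of 0 in 5 genes is not distinguishable from these backgrounds. In pacDNA-L9 42.4 against WT, 1 of the 5 was called, Clcn1, beside 9.98% of all genes (1749, 1074 higher and 675 lower). All comparisons with NT share its 8 libraries, and both with WT share its 5.

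The sequence complementary to L9, CTGCTGCTG, was found in annotated transcripts of 2 of the 5 genes, Cacng1 and Atp1b1, and in 20.9% of 17420 tested genes with a transcript. In Cacng1 it lies in the 5′ UTR of all 8 annotated transcripts at chr11:107607254-107607262 (GRCm39, minus strand). In Atp1b1 it lies at chr1:164269771-164269779 and, overlapping, chr1:164269774-164269782, in the 3′ UTR of 1 transcript annotated as subject to nonsense-mediated decay. The sites are shown with their flanks because L9 could pair with these letters, and capitals mark 1 site in each line.
Cacng1: gagacaCTGCTGCTGccccct
Atp1b1: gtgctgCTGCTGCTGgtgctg
Atp1b1: aaagtgCTGCTGCTGctggtg
Neither gene was called in pacDNA-L9 42.4 against NT, at -0.23 in log2 for Cacng1 (interval -0.72 to 0.26) and -0.23 for Atp1b1 (-0.87 to 0.41).

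Among the 54 genes of 4 lists of related channels, transporters and pump family genes, 52 were tested, Scn1a and Scn8a being filtered out. Of the chloride channel and transport genes, 1 of 13 was called in NT against WT (Clcn1, lower), with a list median of -0.14 in log2 beside -0.03 over all genes. Of the sodium channel genes and partners, 0 of 11 were called by edgeR, with a median of 0.57, while DESeq2 called Ank3 (0.57, adjusted p 0.0379, beside 0.0699 from edgeR). Of the surface calcium channel genes, 3 of 16 were called, all higher, with a median of -0.21, and of the pump genes 1 of 12, higher, with a median of 0.22. Over all genes 5.31% were called, and whether a list differed from that share was not tested. The call in the pump list was not Atp1b1 but Atp1b4, and of the calcium channel calls Cacng1 was joined by Cacna2d4 and Cacnb4.

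Cacna2d4 encodes an alpha2delta subunit of calcium channels. It was at 1.91, 1.35, 2.01, 2.55 and 1.28 CPM in WT and from 12.1 through 16.8 to 27.9 CPM in NT. All NT libraries were several times above all WT libraries, and the log2 fold change was 3.31 (SE 0.22, interval 2.86 to 3.76, adjusted p 2.91e-10 from edgeR). Its level in pacDNA-L9 42.4 was 10.9, 18.3 and 12.6 CPM, which overlapped NT (log2 fold change -0.38, interval -0.84 to 0.07).

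Cacnb4 encodes another calcium channel beta subunit and was scarce in WT, at 2, 4, 4, 5 and 5 counts per library, or 0.106 to 0.257 CPM. In NT it was at 0.434 through 0.996 to 1.84 CPM. The groups did not overlap. At such low counts in WT the size is uncertain, at an estimated log2 fold change of 2.14 and at least 1.05 by its interval (adjusted p 0.0140 from edgeR), and a filter asking for 10 counts in every library removed the gene. Of the exon bases of Cacnb4, 15.7% also lie in A430018G15Rik on the opposite strand. In pacDNA-L9 42.4 it stood at 1.27, 4.72 and 2.83 CPM, the first of these within the NT range. The log2 difference from NT was 1.63 (SE 0.48), with an adjusted p of 0.0610 from edgeR and 0.0471 from DESeq2.

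Atp1b4 belongs to the beta subunit family of the pump by name. Whether its product works in the pump was not examined, so its level is not read as that of a pump subunit. It was at 6.68, 3.37, 2.11, 3.55 and 6.73 CPM in WT and from 8.93 through 17.4 to 38.5 CPM in NT, without overlap. The log2 fold change was 1.91 (SE 0.40, interval 1.09 to 2.73, adjusted p 0.00317 from edgeR). In pacDNA-L9 42.4 it was at 12.0, 4.43 and 11.4 CPM, with a log2 difference from NT of -0.85 (interval -1.78 to 0.08) that was not called.

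In pacDNA-L9 42.4 against NT, 1 of the 52 tested genes was called by edgeR, beside 3.14% of all genes. That gene was Clcn3, which encodes a chloride-proton exchanger of intracellular vesicles. It was at 39.5, 37.9 and 43.3 CPM in the treated libraries and from 47.9 through 62.3 to 77.6 CPM in NT. The groups did not overlap, and the log2 fold change was -0.67 (SE 0.16, adjusted p 0.0148 from edgeR). The call was lost without pacDNA-L9 42.4 A (adjusted p 0.0615) or B (0.163), and with the running-number libraries as a further level (0.176), at log2 fold changes of -0.67, -0.63 and -0.54. DESeq2 also called Ank3 (0.71, adjusted p 0.0546 from edgeR), Cacng6 (-0.56, 0.0753) and Cacnb4 there, which edgeR did not. List medians in this comparison were -0.12 for chloride, -0.06 for sodium, -0.06 for calcium and 0.17 for pump genes, beside -0.02 over all genes.

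In pacDNA-L9 42.4 against WT, where 9.98% of all genes were called, 2 of 13 chloride genes were called, both lower (Clcn1 and Clcn3). Of the sodium channel list only Ank3, an anchoring gene, is described for this comparison (1.27, adjusted p 0.000236 from edgeR), and the count over that list is not given. Of 16 calcium channel genes 3 were called, Cacnb4 (3.78) and Cacna2d4 (2.93) higher and Cacng6 (-0.56, adjusted p 0.0477) lower, and of 12 pump genes 0. In the 5 other comparisons no gene of the lists was called.

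**Figure D4:**
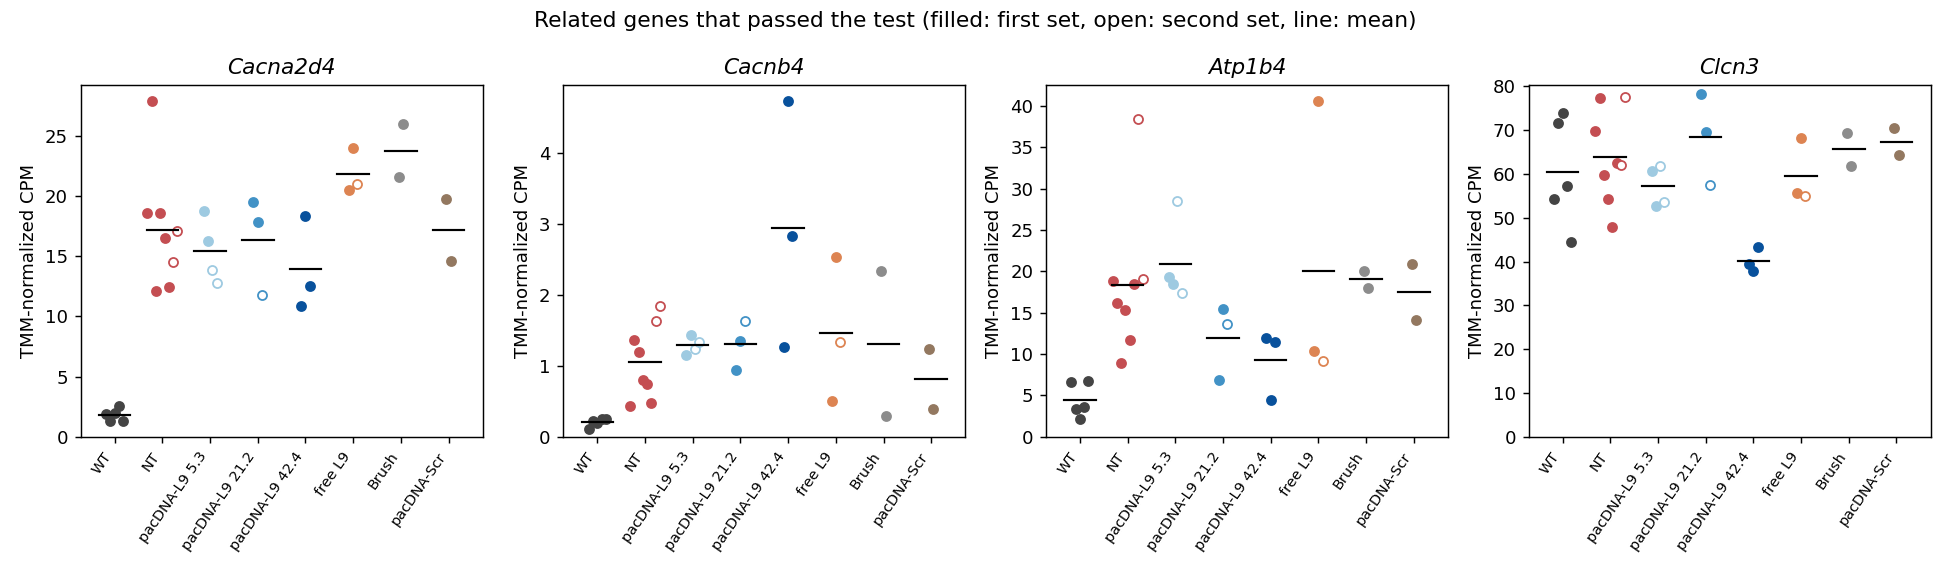
Level (TMM-normalised CPM, linear axis from 0) of the 4 related genes called in NT against WT or in pacDNA-L9 42.4 against NT, by group, with filled points for the first deposited set, open points for the second and a line at the mean. Cacna2d4, Cacnb4 and Atp1b4 are lowest in WT by group mean, and Clcn3 is lowest in pacDNA-L9 42.4, at 37.9 to 43.3 CPM.

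The most abundant chloride and calcium channel genes per kilobase of exon in NT were, after Clcn1 itself (16.1 CPM), the calcium-activated channel family gene Ano5 (12.8) among chloride genes, and, after Cacng1, Jph2 (145) and the pore subunit Cacna1s (121) among calcium channel genes. None of these was called in NT against WT. Their log2 fold changes were -0.14 for Ano5, -0.49 for Jph2 (interval -0.99 to 0.02) and -0.09 for Cacna1s.

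Genes whose log2 CPM was most like each of the 5 were sought over the 24 libraries of the first set among 9573 other genes with a mean of at least 5 CPM. They were Fsd2 (Pearson r 0.93), Styx (0.89) and Amigo1 (0.89) for Clcn1, and Epg5 (0.95), Man2a2 (0.93) and Ryr1 (0.92) for Scn4a. They were Hras (0.92), 2410004B18Rik (0.82) and Fbxl22 (0.81) for Cacnb1, and Sgca (0.90), Pkig (0.89) and Eef1g (0.89) for Cacng1. For Atp1b1 they were Esrrg (0.83), Lrrn1 (0.78) and Plbd1 (0.74). With each group centred on its own mean, Fsd2 went from rank 1 to rank 77 for Clcn1 (r 0.78), Styx to 368 and Amigo1 to 958, and Pkig and Eef1g to 330 and 498 for Cacng1 and 2410004B18Rik to 107 for Cacnb1. Epg5 for Scn4a and Hras for Cacnb1 were at rank 1.

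Of the muscle fibre genes 8 of 8 were tested. Their summed level ran from 113281 to 150490 CPM in WT and from 118374 to 170787 CPM in NT, Myh4 being the most abundant. They mark muscle fibres and do not tell which muscle was taken. Of these 8, Myh1 was called in NT against WT, higher (1.29, adjusted p 0.0138). Markers of other cells and of denervated fibres moved beside Clcn1 and Cacng1. Of the motor nerve and Schwann cell markers only Mbp is described, which was called in NT against WT, lower (-0.97).

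Of 6 markers of denervated fibres 2 were called in NT against WT, Ncam1 (1.26) and Runx1 (1.61), both higher. Myog of the same list was lower there (-0.62) and not called. In pacDNA-L9 42.4 against NT, 2 were called, Myog (1.94) and Runx1 (1.07), both higher, while Chrng was lower (-0.34) and not called. The sum was 75.3, 34.8, 37.1, 34.9 and 68.6 CPM in WT, from 51.5 through 65.6 to 87.1 CPM in NT and 115, 163 and 110 CPM in pacDNA-L9 42.4. Chrna1 was the most abundant of the list over all libraries. Myog exceeded Chrna1 in WT and in pacDNA-L9 42.4 by group mean (20.4 beside 18.8 CPM, and 51.0 beside 32.3 CPM). Of 4 macrophage markers, Cd68 was called in NT against WT (1.54), and Csf1r (0.97), C1qa (1.32) and Cd68 (2.07) in pacDNA-L9 42.4 against NT, all higher. Adgre1 was lower in NT against WT (-0.39) and not called. In pacDNA-L9 42.4 against NT it was higher (1.61, adjusted p 0.0667 from edgeR and 0.0206 from DESeq2). The sum of the 4 was 27.4, 16.4, 32.3, 24.3 and 22.5 CPM in WT, from 26.0 through 33.02 to 47.2 CPM in NT and 91.6, 95.7 and 68.3 CPM in pacDNA-L9 42.4. Csf1r was the most abundant over all libraries, while C1qa exceeded Csf1r in WT and in pacDNA-L9 42.4 by group mean. The sum was also above NT in all 4 libraries of pacDNA-L9 5.3 (50.8 to 61.3 CPM), in Brush (60.5 and 67.4), in pacDNA-L9 21.2 B and C (79.8 and 72.6) and in pacDNA-Scr B (47.9), and Cd68 was called in pacDNA-L9 21.2 against NT, higher (1.61, adjusted p 0.0147 from edgeR). Of 3 smooth muscle markers, Acta2, the most abundant, was called in NT against WT, lower (-0.75), while Tagln was higher (0.58) and not called. By edgeR no marker of satellite cells, endothelium, fibroblasts, adipocytes or blood (3 each) was called in either comparison. DESeq2 called the satellite cell marker Myf5 in NT against WT, higher (0.90, adjusted p 0.0357, beside 0.0640 from edgeR). No marker was at 0 in all libraries. The part of these cells in the levels of Clcn1 and Cacng1 was not tested.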

How the data were processed

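Quadriceps RNA of 30 mice was sequenced as paired 150-base reads after poly(A) selection. The authors deposited raw counts per gene on GRCm39; the submitters' processing notes name HISAT2 2.0.5 and DESeq2, and the counting options, strand setting and treatment of reads with several matches were not given in the sources used here. Groups came from the sample labels. 1 WT column matched its group but no single label and was used as an unnumbered replicate. Counts were analysed with edgeR 4.0.16 (R 4.3.3): filterByExpr by group (17518 of 56748 genes tested), TMM scaling, robust quasi-likelihood fits over 8 groups with the deposited set as a term, and Benjamini-Hochberg adjustment over all genes tested. No 2 libraries of a group agreed within counting noise (chi-square per gene 17.7 or more), so none was merged. The p-values test group differences against the spread between libraries of different mice, estimated over all 8 groups together.

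Depth ran from 13605309 to 26956558 counts (median 20141900). Alternatives were DESeq2 1.42.0, other scalings and filters, fits without the set term, with sex or with 3 levels of library names, the first set alone, only the groups compared, and each library left out in turn. The members and lists were chosen with earlier results of these data known. Named genes were the 5 members in each comparison, each gene of 4 related lists called in NT against WT or in pacDNA-L9 42.4 against NT, the most abundant per kilobase in the chloride and calcium channel lists, and for each member the 3 genes with the highest Pearson r of log2 CPM (prior count 1) over the first set. Other genes called in pacDNA-L9 42.4 against WT were named after their values were seen. Markers were listed for muscle fibres, motor nerve and Schwann cells, denervated fibres, satellite cells, endothelium, smooth muscle, fibroblasts, macrophages, adipocytes, blood and sex. Exon lengths and positions came from a GENCODE annotation of GRCm39, and promoters from a RefSeq table of GRCm38.p6.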

Additional observations from a re-analysis of the deposited data

How the results depend on the processing

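In NT against WT, Clcn1 and Cacng1 were called and the other 3 were not in each of 44 alternatives, with an adjusted p up to 0.0252 for Clcn1 (log2 fold change -0.93 to -0.74) and 0.0249 for Cacng1 (0.81 to 0.97). Over the 44 tested results, 1847 of 1861 values were the same, 3 lost the call, 11 gained it and 0 called values reversed, while 88 uncalled values changed sign.

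The values that moved include Clcn1 log2 fold change, pacDNA-L9 42.4 against NT, so that 1 of the 5 genes instead of 0 was called with the first set alone (adjusted p 0.0324), without the libraries listing no mitochondrial counts (0.0355), with only the groups compared (0.0254), and without free L9 B (0.0408) or C (0.0232), so 0 to 1 with each library left out in turn. Its adjusted p ran up to 0.727. Scn4a log2 fold change, pacDNA-L9 42.4 against WT, and Cacng1 log2 fold change, pacDNA-L9 42.4 against WT, also moved, and 2 of the 5 instead of 1 were called with library size alone (Scn4a, 0.0484), with sex as a term (Cacng1, 0.0293), with only the groups compared (Cacng1, 0.0111) and without free L9 A (Cacng1, 0.0472), and 3 without free L9 B (Scn4a 0.0408, Cacng1 0.0173), a range of 1 to 3. Clcn3 in pacDNA-L9 42.4 against NT lost its call in 3 fits. Cacnb4 in NT against WT had no value in 3 of the 44, with the stricter filter and in both fits of numbered mice. The cause was not tested.

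The counts moved as follows: genes called among all tested, NT against WT, 930, and 1585 without free L9 B or 449 with a fold limit. For genes called among all tested, pacDNA-L9 42.4 against NT, it was 550, and 240 with 3 levels of library names, 126 without pacDNA-L9 42.4 B and 945 without free L9 B. For genes called among all tested, pacDNA-L9 42.4 against WT, it was 1749, and 1049, 912 and 2762 in the same fits. For genes called among all tested, free L9 against NT, it was 165, and 525 with DESeq2, 42 with at least 10 counts in every library, 22 without the set term, 354 with the first set alone, 347 without the libraries listing no mitochondrial counts, 3 with only the groups compared, and 58, 59, 106, 107, 1360, 268 and 1147 without NT 7, NT 8, pacDNA-L9 5.3 C, pacDNA-L9 21.2 C, free L9 A, B and C. pacDNA-L9 21.2: 12, and 21 with DESeq2, 5 with at least 10 counts, 2 with the first set alone, 3 without mitochondrial gaps, 4 with only the groups compared, and 20, 2 and 4 without its libraries A, B and C. pacDNA-L9 5.3: 0, and 3 with DESeq2, 1 with no filter, with at least 10 counts, and without pacDNA-L9 21.2 A or C. Brush: 0, and 6 with DESeq2, 2 with no filter, 4 with sex, and 1, 6 and 4 without pacDNA-L9 21.2 A, free L9 B and C. pacDNA-Scr: 0, and 1 with DESeq2.

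Of the 3 genes most like Clcn1, 1 was again among the top 3 with all libraries and each set centred and 0 with each group centred, as was 1 for Cacnb1 with each set and 1 for Cacng1 with each group centred. WT and NT share the numbers 1 to 4, but the deviations of same-numbered mice had correlations of 0.161, 0.00101, 0.0482 and 0.186, and 2 of 4 WT libraries matched their own number best, so the numbers were not taken as pairs. With the number as a block, 2 of the 5 genes were called (Clcn1 -0.89, Cacng1 0.81) and genes called among all tested, NT against WT, were 631, beside 680 in the same mice without the block, a fit chosen after seeing the data. Groups of 2 to 4 mice, a second set without WT, pacDNA-L9 42.4, Brush or pacDNA-Scr, and highest-dose libraries all of 1 naming style limit each comparison of treated mice.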
